A study of Mus musculus with 4 samples.

Results

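The genes described here are the interferon-stimulated genes and sensors: antiviral effectors, interferon-inducible GTPases, sensors of foreign or misplaced nucleic acid, and the receptors through which interferons act. They were taken as 39 listed mouse genes, each read from its brightest probe set among those to which the platform annotation gives 1 gene symbol. Of the 39, 37 had such a probe set and 35 were bright enough to be tested, among 18194 such genes on the array and 10873 tested. Isg15 and Ifi44 had no probe set of 1 symbol and were not analysed here, and Mx2 and Ifng were too dim to be tested.

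The cells were group 2 innate lymphoid cells (ILC2), tissue lymphocytes without antigen receptors that make type 2 cytokines in response to IL-33. One group came from Ets1-deleted mice and the other from control littermates, both of the C57BL/6 strain. Ets1 encodes the transcription factor ETS1. All cells of both groups were grown for 2 weeks with IL-7 and IL-33 on OP9-DL1, a stromal cell line that presents the Notch ligand DL1, and ICOS+ cells were then sorted for RNA. Each group had 2 Affymetrix arrays. The sources used here give neither what drives the deletion and in which cells, nor the age of the mice, the tissue the cells came from, or whether the 2 arrays of a group came from separate mice or cultures. A p-value here therefore speaks of the spread among these 4 arrays, which may be technical.

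Type I interferons bind IFNAR1 with IFNAR2, and interferon gamma binds IFNGR1 with IFNGR2. Receptor-bound JAK kinases then activate STAT factors, which with IRF9 bind the interferon-stimulated response element (ISRE), or as STAT dimers bind the gamma-activated site (GAS), in the promoters of induced genes. The induced proteins block viral translation, replication or entry, attack the vacuoles of intracellular microbes, and include the sensors RIG-I and MDA5, which recognise viral RNA and cause more interferon to be made. Interferons are also known to restrain ILC2.

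The Ets1 probe set fell to 138 and 180 intensity units in the Ets1-deleted arrays, against 1272 and 1231 in the control arrays (log2 difference -2.99 ± 0.13, SE; limma adjusted p = 2.17e-08). Where this probe set lies relative to the deleted part is not given. Of 16 measured ILC2 markers, 0 were under the limit for testing in every array. Their summed intensity was 31347 to 33479 in the Ets1-deleted arrays and 25446 to 27508 in the control arrays. These markers split, with 8 called higher and 4 lower of 16 tested, against 13.9% and 12.8% of all tested genes. Thy1 (1.91) and Arg1 (1.56) rose, while Klrg1 (-1.60) and Icos (-0.38), whose protein was used for sorting, fell. Markers of other cells moved with the groups as well. In the Ets1-deleted arrays all 11 tested markers of monocytes, macrophages and neutrophils were higher, with sums over 16 genes of 6724 to 7124 against 3389 to 3718 in the control arrays, while Fcgr1, Csf3r and Cd14 were under the limit in all 4 arrays. Of these 11, 1 (Adgre1) had a control mean under the limit and so was tested only through its Ets1-deleted level; with no filter, 11 of all 16 measured were called higher and 0 lower. All 3 tested markers of conventional dendritic cells were also higher (sums over 8 genes 1470 to 1513 against 957 to 987 in control). Flt3, Xcr1 and Cd209a were under the limit, and with no filter 2 of all 8 were called higher. Of plasmacytoid dendritic cell markers 4 of 7 tested were higher, Irf8 and Ccr9 among them, whose control means were under the limit. Sums over 9 plasmacytoid genes were 1536 to 1654 against 1174 to 1178 in control, with Pacsin1 under the limit. With no filter 4 of all 9 were called higher. Calls higher and lower were 8 and 0 of 10 tested for mast cells and basophils, 5 and 1 of 9 for T cells, 3 and 2 of 8 for NK cells and ILC1, 3 and 0 of 4 for ILC3, 0 and 1 of 3 for B cells, 1 and 3 of 10 for stroma and 1 and 0 of 4 for erythroid cells. Over all tested genes 13.9% were called higher and 12.8% lower. Among others, Cpa3, Cd3e, Klrc1 and Il17a were tested only through their Ets1-deleted level, and Cd79b only through its control level. With no filter the calls were 10 and 0 of all 14 measured for mast cells and basophils and 5 and 1 of 13 for T cells. They were 3 and 1 of 12 for NK cells and ILC1, 3 and 0 of 4 for ILC3 and 0 and 1 of 7 for B cells. In such bulk samples fewer cells of a type and less RNA per cell cannot be told apart, and the part these other cells have in the values below was not tested.

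The interferon genes split, with calls in both directions. Of the 35 tested, 6 were higher and 8 lower in Ets1-deleted cells at a limma adjusted p under 0.05, and 21 were not called. That is 40% called, against 26.7% of all tested genes, of which 13.9% were called higher and 12.8% lower. With no filter on dim genes the member calls were again 6 and 8, of 37, where 2888 of all 18194 genes were called. The median log2 difference, Ets1-deleted minus control, was -0.16 over the members and -0.004 over all tested genes. Without the first Ets1-deleted array the median over the members was -0.09. The 2 arrays of each group lay apart for 29 of the 35 (82.9%; 10 higher and 19 lower in Ets1-deleted), against 62.6% of all tested genes. Of the 14 called members 7 differed by 1.5-fold or more, and Ifngr1, the chain that binds interferon gamma, was the only one past 2-fold. Subtracting each array's 5th percentile as background widened the differences of dim members, and Ifit1 (-1.06), Oas3 (-1.27), Oasl2 (1.93) and Usp18 (1.19) then passed 2-fold too. The precision is limited by the 2 arrays in each group, and an exact permutation test of a single gene could not go below p = 0.333.

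**Figure D1:**
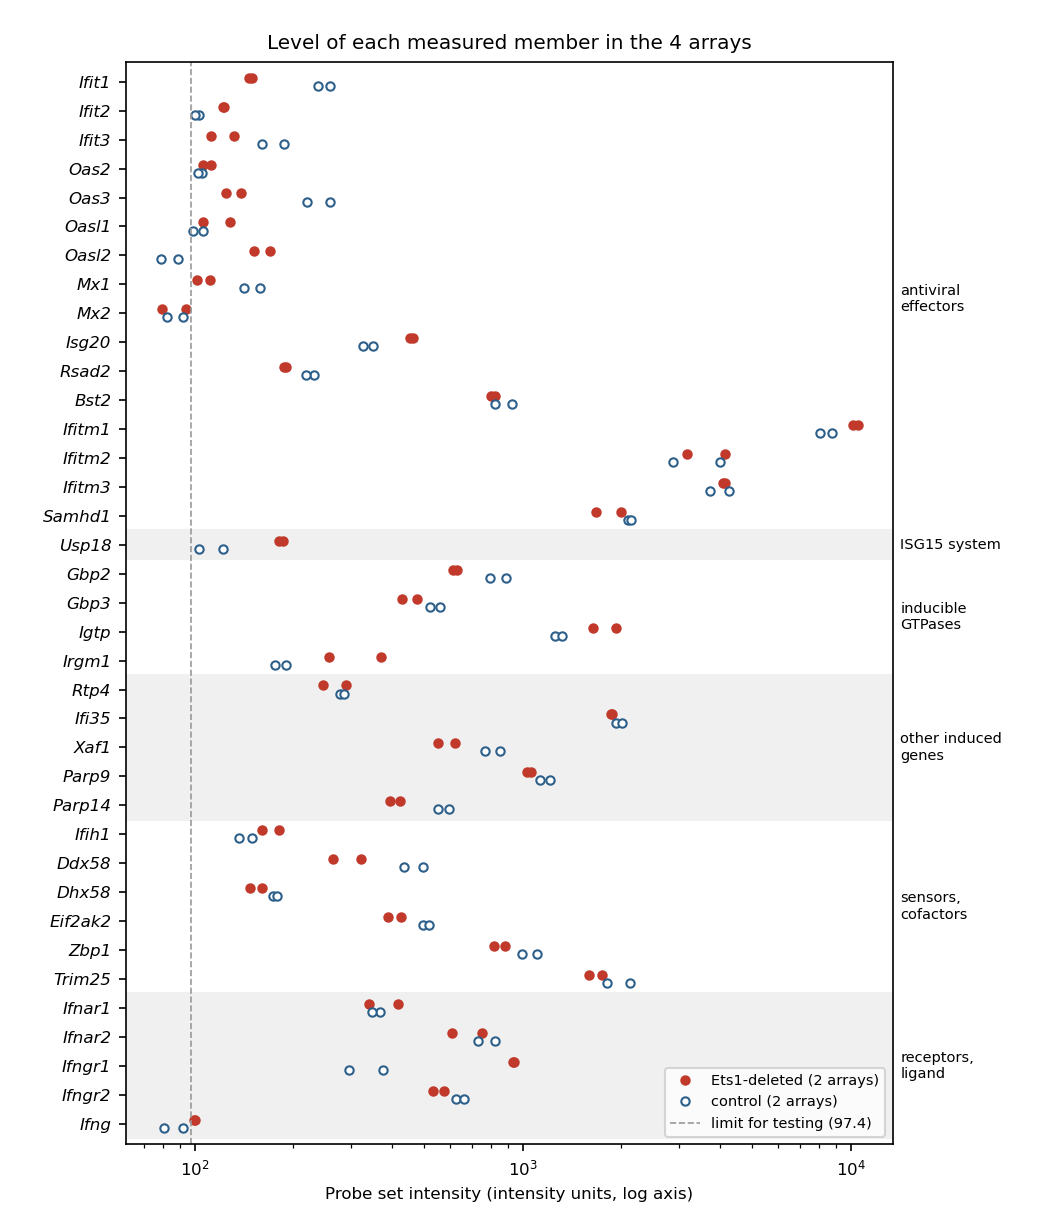
Probe set intensity (log axis) of the 37 measured members in each of the 4 arrays, with filled points for the 2 Ets1-deleted arrays, open points for the 2 control arrays and a dashed line at the limit for testing. Ifngr1, Oasl2 and Usp18 stand apart to the right in the Ets1-deleted arrays, Ifit1, Oas3 and Ddx58 to the left, and the Ifitm genes are the brightest.

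Among the 16 antiviral effectors 15 were tested, of which 2 rose, 4 fell and 9 were not called (median log2 difference 0.05). That is 40% called, against 26.7% of all tested genes. Within the IFIT family, which binds viral RNA and blocks its translation, Ifit1 was at 149 and 146 intensity units in the Ets1-deleted arrays, against 258 and 238 in the control arrays. Ifit3, of the same family, was at 112 and 131 in Ets1-deleted, against 187 and 159.9 in control. The groups were apart for both genes, and both fell, Ifit1 by 0.75 ± 0.11 on the log2 scale (1.68-fold; limma adjusted p = 0.000317) and Ifit3 by 0.51 ± 0.13 (limma adjusted p = 0.0100). Ifit2 was at 122 and 122 in Ets1-deleted and 103 and 100.5 in control, a difference of 0.27 ± 0.11 that was not called (limma adjusted p = 0.0918). The call of Ifit3 was lost without the first Ets1-deleted array (-0.40, limma adjusted p = 0.0578) and without the first control array (-0.40, limma adjusted p = 0.0783). With the 5th percentile subtracted Ifit3 was at -0.84, and Ifit2 was called higher (0.54; limma adjusted p = 0.0213).

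In the OAS family Oas3 and Oasl2 were called, in opposite directions. OAS3 makes the 2-5A oligomers that switch on RNase L, and its gene was at 138 and 125 in the Ets1-deleted arrays, against 258 and 219.7 in the control arrays. Oasl2, which encodes an OAS-like protein with ubiquitin-like domains, was at 152 and 169.6 in Ets1-deleted, against 89.0 and 78.8 in control. Oas3 fell by 0.86 ± 0.12 on the log2 scale (1.81-fold; limma adjusted p = 0.000232), and Oasl2 rose by 0.94 ± 0.12 (1.92-fold; limma adjusted p = 9.03e-05). Oasl2 had a control mean under the limit and passed only through its Ets1-deleted arrays, so it had to be brighter there to be tested; with no filter on dim genes its limma adjusted p was 0.00104. With the 5th percentile subtracted its difference was 1.93. Oas2 (0.07) and Oasl1 (0.18), both close to the limit in every array, were not called.

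Of the remaining effectors, Mx1 and Isg20 were called, in opposite directions. Mx1, an interferon-induced GTPase gene that RefSeq annotates in the C57BL/6J genome as a transcribed pseudogene, was at 111 and 101 in the Ets1-deleted arrays, against 141 and 159 in the control arrays. Isg20, an exonuclease that degrades single-stranded RNA, was at 463 and 453 in Ets1-deleted, against 326 and 349 in control. Mx1 fell by 0.49 ± 0.12 (limma adjusted p = 0.00759) and Isg20 rose by 0.44 ± 0.11 (limma adjusted p = 0.0102), with the groups apart for both. Each call rested on a control array: without the second, Mx1 was at -0.41 (limma adjusted p = 0.0695), and without the first, Isg20 was at 0.39 (limma adjusted p = 0.0839). With the 5th percentile subtracted Mx1 was at -0.90.

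The brightest members were among those not called. Ifitm1, a membrane protein that restricts viral entry, had 10137 and 10508 intensity units in the Ets1-deleted arrays and 8062 and 8758 in the control arrays (0.30 ± 0.11; limma adjusted p = 0.0690). Its relatives Ifitm2 (0.10) and Ifitm3 (0.05) overlapped between the groups, and Ifitm2 was brighter in the first array of each group, at 4138 against 3178 within Ets1-deleted and 4004 against 2874 within control. Rsad2, which encodes viperin, Bst2, which encodes the tethering protein of budding virions, and Samhd1, a nucleotide hydrolase, had differences of -0.25, -0.11 and -0.21.

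Usp18, the protease that removes ISG15 from proteins and also damps IFNAR2 signalling, was at 186 and 181 in the Ets1-deleted arrays, against 122 and 103 in the control arrays. It rose by 0.71 ± 0.12 (1.63-fold; limma adjusted p = 0.000853), or by 1.19 with the 5th percentile subtracted. Ube2l6, the conjugating enzyme that passes ISG15 on to proteins, was at 121 and 99.7 in Ets1-deleted, against 317 and 292 in control, and fell by 1.47 ± 0.12 (2.77-fold; limma adjusted p = 3.40e-06). Picked out after their values were seen, Uba7, the activating enzyme, fell by 0.78 ± 0.12 (limma adjusted p = 0.000358), and Herc6, the ligase used in the mouse, was not called (-0.02).

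**Figure D2:**
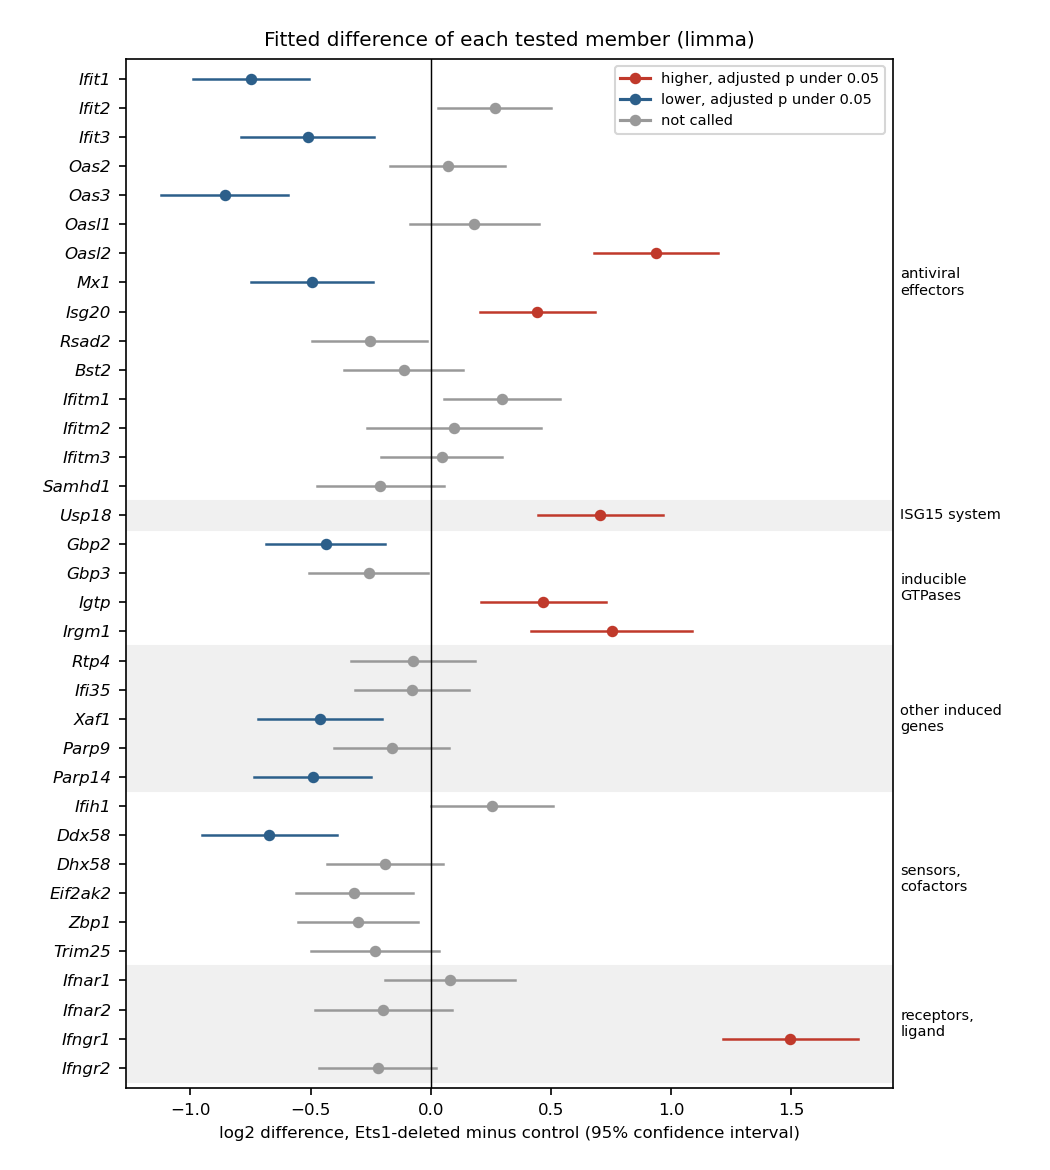
Fitted log2 difference, Ets1-deleted minus control, of each of the 35 tested members with its 95% confidence interval from limma, by role. Red marks the 6 called higher, blue the 8 called lower and grey the 21 not called, and calls in both directions occur among the effectors and the GTPases.

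Of the 4 interferon-inducible GTPases, which gather on the vacuoles of intracellular microbes and disrupt them, 2 rose, 1 fell and 1 was not called. That is 75% called, against 26.7% of all tested genes. The IRG genes Irgm1 and Igtp rose, and the GBP gene Gbp2 fell. Irgm1, a regulator of the other IRG proteins, was at 369.6 and 257 in the Ets1-deleted arrays, against 176 and 190.3 in the control arrays (0.75 ± 0.15; limma adjusted p = 0.00325). Igtp was at 1639 and 1929 in Ets1-deleted, against 1253 and 1316 in control (0.47 ± 0.12; limma adjusted p = 0.0116). Gbp2 was at 611 and 631 in Ets1-deleted, against 889.8 and 795 in control (-0.44 ± 0.11; limma adjusted p = 0.0130), and Gbp3 was not called (-0.26; limma adjusted p = 0.119).

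The 2 arrays of each group lay apart for all 4 of these GTPases, against 62.6% of all tested genes. The 2 Ets1-deleted values of Irgm1 differed from each other more than the 2 control values did. Irgm1 was at 0.49 without the first Ets1-deleted array and at 1.014 without the second, called in both. Gbp2 lost its call without the first control array (-0.36, limma adjusted p = 0.130). Igtp lost its call without the second Ets1-deleted array (0.35, limma adjusted p = 0.0716) or the first control array (0.43, limma adjusted p = 0.0505). Among 5 relatives outside the list, looked up after the member values were seen, Iigp1, an effector IRG protein, rose by 1.31 ± 0.12 (limma adjusted p = 4.76e-06; 0.000178 with no filter, its control mean being under the limit), whereas Irgm2 (0.02) and Ifi47 (-0.04) were not called. Gbp6 rose by 0.60 ± 0.11 (limma adjusted p = 0.00194) and Gbp7 fell by 0.63 ± 0.11 (limma adjusted p = 0.00148).

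The remaining induced genes all had differences below 0, and 2 of the 5 tested were called (40%, against 26.7% of all tested genes). Parp14, an ADP-ribosyltransferase, was at 394 and 423 in the Ets1-deleted arrays, against 553 and 595 in the control arrays. Xaf1, a partner of the apoptosis inhibitor XIAP, was at 551 and 624 in Ets1-deleted, against 765 and 850.2 in control. Parp14 fell by 0.49 ± 0.11 (limma adjusted p = 0.00609) and Xaf1 by 0.46 ± 0.12 (limma adjusted p = 0.0123), with the groups apart. Xaf1 lost its call without the first Ets1-deleted array (-0.37, limma adjusted p = 0.0667) or without the second control array (-0.39, limma adjusted p = 0.0958). Parp9 (-0.16), Ifi35 (-0.08) and Rtp4 (-0.07) were not called.

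Of the 6 nucleic acid sensors and their cofactors, 1 fell, 0 rose and 5 were not called at the limma threshold (26.7% of all tested genes were called), with a median log2 difference of -0.27. At an unadjusted limma p under 0.05, 1 was higher and 3 were lower, where 37.7% of all tested genes passed (19.1% higher, 18.6% lower). Ddx58, which encodes the RNA sensor RIG-I, was at 265 and 322 in the Ets1-deleted arrays, against 435 and 498 in the control arrays, a fall of 0.67 ± 0.13 (1.59-fold; limma adjusted p = 0.00210). The mean over its probe sets gave -0.37 (limma adjusted p = 0.0139). Ifih1, which encodes the related sensor MDA5, had 161 and 181 in Ets1-deleted and 149 and 137 in control (0.26; limma adjusted p = 0.129). The 2 arrays of each group were apart for all 6 genes, against 62.6% of all tested genes, with Ifih1 the 1 that was higher in Ets1-deleted.

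In the brightest probe set of each, the other sensors were below 0 by smaller amounts. The mean over probe sets gave -0.56 for Zbp1 and -0.34 for Dhx58, both called lower (limma adjusted p = 0.00138 and 0.0244). It gave -0.23 for Eif2ak2 and -0.05 for Trim25, not called. Eif2ak2, which encodes the RNA-activated kinase PKR, had 427 and 388 in Ets1-deleted and 497 and 518 in control (-0.32; limma adjusted p = 0.0550). Zbp1, a sensor of Z-form nucleic acid, had 819 and 885 in Ets1-deleted and 999 and 1104 in control (-0.30; limma adjusted p = 0.0711). Both were just outside the threshold. Trim25, the ubiquitin ligase that acts on RIG-I, and Dhx58, the RIG-I relative LGP2, had -0.23 and -0.19.

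Ifngr1 showed the largest difference among the tested members, except that with the 5th percentile subtracted Oasl2 (1.93) exceeded it (1.68). It was at 940.0 and 932 intensity units in the Ets1-deleted arrays, against 295 and 374 in the control arrays. Both Ets1-deleted arrays were more than 2-fold above both control arrays, and the fitted difference was 1.496 ± 0.13 (2.82-fold, 95% interval of the log2 difference 1.21 to 1.78; limma adjusted p = 3.92e-06). Ifngr2, the chain that pairs with it, was at 575 and 532 in Ets1-deleted and 627 and 662 in control (-0.22 ± 0.11; limma adjusted p = 0.173).

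The type I receptor chains did not pass the threshold. Ifnar1 was at 340.3 and 417 in Ets1-deleted and 366 and 347 in control (0.08 ± 0.12; limma adjusted p = 0.694). Ifnar2 was at 753 and 607 in Ets1-deleted and 731 and 821 in control (-0.20 ± 0.13; limma adjusted p = 0.306). The groups overlapped for both. Ifng, the ligand of IFNGR1, was at 99.5 and 100.4 in Ets1-deleted and 80.6 and 91.96 in control, near the limit for testing, and the 8 measured type I interferon genes lay between 51.6 and 126 over all 4 arrays.

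**Figure D3:**
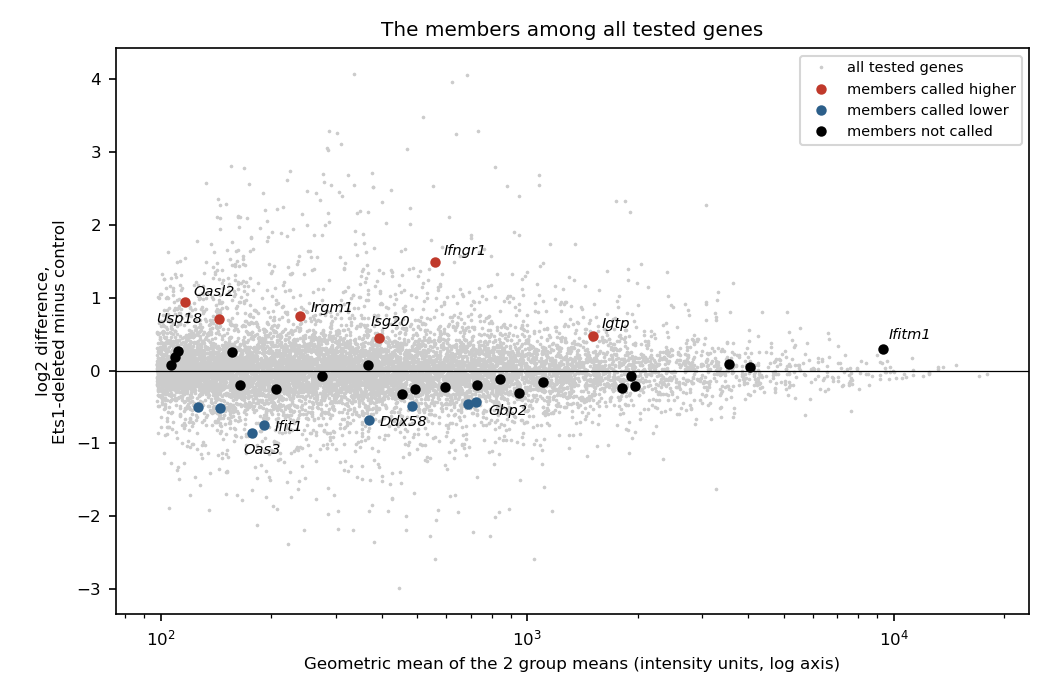
Log2 difference, Ets1-deleted minus control, against mean intensity (log axis) for all 10873 tested genes (grey) and the 35 members (red higher, blue lower, black not called). The members lie inside the range of all genes at every intensity, with Ifngr1 the highest and Oas3 the lowest of them.

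Most calls were read from a single probe set. The 37 measured members had 62 probe sets, 22 members had 1 only, and 10 of the 14 called members, Ifngr1 included, were among those. Of 13 members with more than 1 probe set above the limit, 10 had all of them on the same side of 0. The exceptions were Trim25, Ifnar1 and Ifnar2. For Ifnar1 the brightest probe set gave 0.08 and the other -0.41 (limma adjusted p over probe sets = 0.0262). Zbp1 and Dhx58 were not called by their brightest probe sets but had a second at -0.81 and -0.61 (limma adjusted p over probe sets = 0.000242 and 0.00977). Second probe sets of the called genes were smaller in size: Ddx58 had -0.31, Gbp2 -0.19 and Parp14 -0.18, none of them called.

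**Figure D4:**
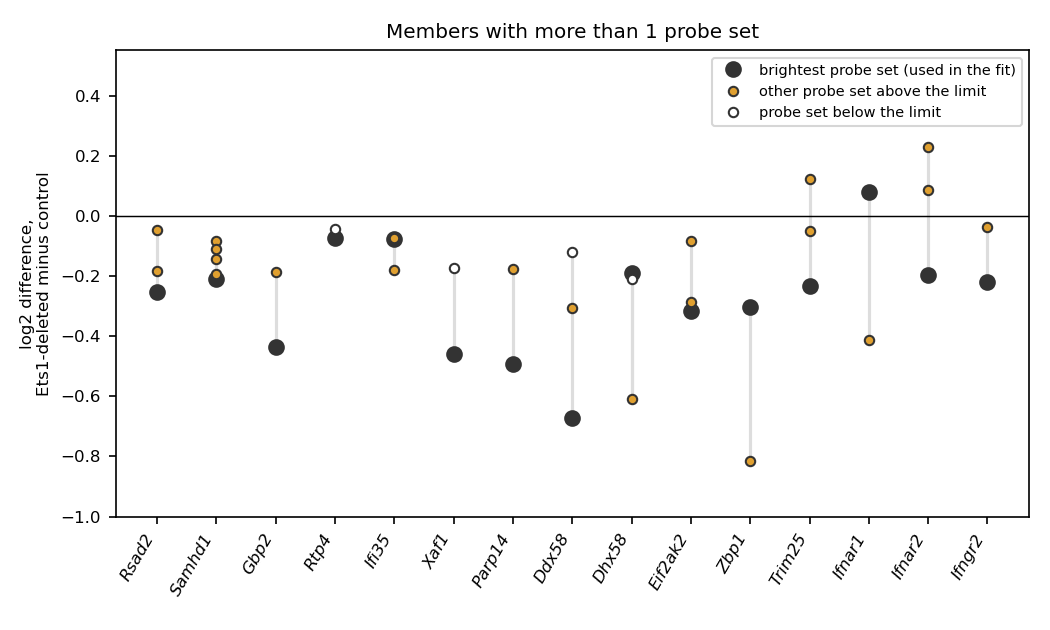
Log2 difference, Ets1-deleted minus control, of every probe set of the members that have more than 1. Large points are the brightest probe set used for the gene, small filled points are other probe sets above the limit for testing and open points are those below it; Trim25, Ifnar1 and Ifnar2 have points on both sides of 0.

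The promoters were searched for letters that match interferon elements and ETS sites close to the start site. RefSeq's promoter table (GRCm38.p6, 250 bases before to 50 after each start) held 34 promoters of 30 of the 39 genes. The ISRE was searched as GAAANNGAAA, the GAS as TTCNNNGAA and ETS sites as CCGGAAGT or CAGGAAGT, all on both strands. The ISRE was in 15 of the 34 promoters (44.1%), against 3.44% of all 32851 promoters in the table, the GAS in 11 (32.4%), against 8.3%, and an ETS site in 5 (14.7%), against 7.07%. Of 6 promoters of genes called lower, 5 held an ISRE, 0 a GAS and 0 an ETS site. Of 7 promoters of genes called higher, 2 held an ISRE, 2 a GAS and 0 an ETS site. Of 18 of genes tested and not called 7 held an ISRE, 8 a GAS and 5 an ETS site. The 7 promoters came from 5 genes, because Isg20 had more than 1. By gene, an ISRE was in 2 of 5 called higher, 5 of 6 called lower and 7 of 16 not called. A GAS match overlapped an ISRE match in Bst2 and Ifitm3. A match is a run of letters and not a shown binding site, and these counts of few genes were not tested. The 160 bases before the start are printed 5′ to 3′ on the gene's strand, with ISRE matches in capitals, for 4 genes that fell (Ifit1, Ifit3, Oas3, Gbp2) and 3 that rose (Igtp, Irgm1, Ifngr1).
Ifit1 (chr19:34640729-34640888, plus strand): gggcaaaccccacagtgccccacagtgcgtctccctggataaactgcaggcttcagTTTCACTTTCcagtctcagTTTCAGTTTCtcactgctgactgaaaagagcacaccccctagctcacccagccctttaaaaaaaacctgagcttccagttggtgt
Ifit3 (chr19:34583369-34583528, plus strand): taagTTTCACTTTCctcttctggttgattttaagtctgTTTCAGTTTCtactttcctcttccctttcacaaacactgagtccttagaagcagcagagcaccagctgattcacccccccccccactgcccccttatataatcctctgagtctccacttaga
Oas3 (chr5:120777660-120777819, minus strand): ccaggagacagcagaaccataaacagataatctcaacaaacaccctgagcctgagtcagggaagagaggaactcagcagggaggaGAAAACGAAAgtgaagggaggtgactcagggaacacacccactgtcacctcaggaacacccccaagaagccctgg
Gbp2 (chr3:142620503-142620662, plus strand): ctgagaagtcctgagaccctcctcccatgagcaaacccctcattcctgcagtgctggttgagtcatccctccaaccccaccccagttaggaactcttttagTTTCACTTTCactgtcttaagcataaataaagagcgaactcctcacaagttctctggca
Igtp (chr11:58199396-58199555, plus strand): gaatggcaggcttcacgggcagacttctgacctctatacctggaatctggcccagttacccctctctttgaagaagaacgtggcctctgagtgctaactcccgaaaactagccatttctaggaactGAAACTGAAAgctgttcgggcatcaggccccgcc
Irgm1 (chr11:48871421-48871580, minus strand): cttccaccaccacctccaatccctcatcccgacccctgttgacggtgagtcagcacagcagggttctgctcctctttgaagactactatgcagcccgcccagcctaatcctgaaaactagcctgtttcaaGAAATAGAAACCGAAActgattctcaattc
Ifngr1 (chr10:19591789-19591948, plus strand): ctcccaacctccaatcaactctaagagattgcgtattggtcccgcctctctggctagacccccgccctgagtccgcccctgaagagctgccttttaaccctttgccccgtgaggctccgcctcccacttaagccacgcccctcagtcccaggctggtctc

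Ifit1 and Ifit3 each had 2 separate ISRE matches, starting 104 and 85 bases before the start for Ifit1 and 156 and 122 bases before it for Ifit3. Oas3 had 1 at 75 bases and Gbp2 1 at 59 bases. Of the genes that rose, Igtp had 1 at 34 bases and Irgm1 a pair that overlap. Genes with an ISRE match close to the start thus stood on both sides. Ifngr1, which also rose, had no ISRE match in this window.

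Among other genes of the pathway, on 3 lists that exclude the members, falls outnumbered rises. Irf7 is on 2 of these lists, those of other interferon-stimulated genes and of interferon signalling, and counts as a fall in both. Of 49 other tested interferon-stimulated genes 6 rose and 25 fell (63.3% called; median -0.34), against 26.7% of all genes. With no filter 6 of all 50 measured were called higher and 24 lower. The 3 of smallest p were Ube2l6, given above, Plscr1 and Ifi27. Plscr1, a phospholipid scramblase, was at 587 and 586 in Ets1-deleted, against 239 and 224 in control, and rose by 1.34 ± 0.11 (limma adjusted p = 2.58e-06). Ifi27 was at 1994 and 2136 in Ets1-deleted, against 868 and 872 in control, and rose by 1.25 ± 0.11 (limma adjusted p = 4.69e-06). The 3 genes with the smallest p thus included both directions.

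Of 17 tested interferon signalling genes 3 rose and 5 fell, with a median of -0.22 (47.1% called, against 26.7% of all tested genes). With no filter 3 of the 17 were called higher and 4 lower. Irf8, a transcription factor of myeloid cells that binds ISRE-like sequences, was at 220.3 and 233 in Ets1-deleted, against 103 and 89.3 in control, and rose by 1.24 ± 0.12 (limma adjusted p = 8.23e-06). Its control mean was under the limit for testing, so it passed only through its Ets1-deleted arrays, and with no filter its limma adjusted p was 0.000263. Irf8 is itself on the plasmacytoid dendritic cell list given above and is counted there among those called higher. Other myeloid and dendritic markers given above were also higher in the Ets1-deleted arrays, and their part in the Irf8 level was not tested. Pias1, an inhibitor of activated STAT factors, fell by 0.61 ± 0.12 (limma adjusted p = 0.00281), and Stat3 rose by 0.46 ± 0.11 (limma adjusted p = 0.00961).

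Of 16 tested sensor adaptors and kinases 0 rose and 6 fell, with a median of -0.17 (37.5% called, against 26.7% of all tested genes). At an unadjusted limma p under 0.05, 1 was higher and 7 were lower, against 19.1% and 18.6% of all tested genes. Tlr7, an endosomal sensor of single-stranded RNA, was at 92.3 and 94.7 in Ets1-deleted, under the limit for testing, against 288 and 203 in control, and fell by 1.37 ± 0.15 (limma adjusted p = 2.85e-05; 0.00133 with no filter). It was tested only through its control arrays; with no filter, 6 of all 17 measured genes of this list were called lower and 0 higher. Rnf125, a ubiquitin ligase that marks RIG-I for degradation, was at 685 and 576 in Ets1-deleted, against 1202 and 1228 in control, and fell by 0.95 ± 0.12 (limma adjusted p = 8.66e-05). Sting1, the adaptor that relays cytosolic DNA sensing by cGAS, was at 795 and 788 in Ets1-deleted, against 1316 and 1382 in control, and fell by 0.77 ± 0.11 (limma adjusted p = 0.000226). Ddx58 and the 6 called genes of this list were all lower in Ets1-deleted cells, but the list also holds sensors and regulators. Looked up afterwards, its adaptors Sting1 and Myd88 (-0.44) were called lower. The adaptors Mavs (0.30), Ticam1 (0.30) and Traf6 (-0.14) were not called. On the ligand list 2 genes were tested, the ligand Ifna1 (-0.13) and the receptor chain Il10rb (-0.15). Neither was called or had an unadjusted limma p under 0.05.

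**Figure D5:**
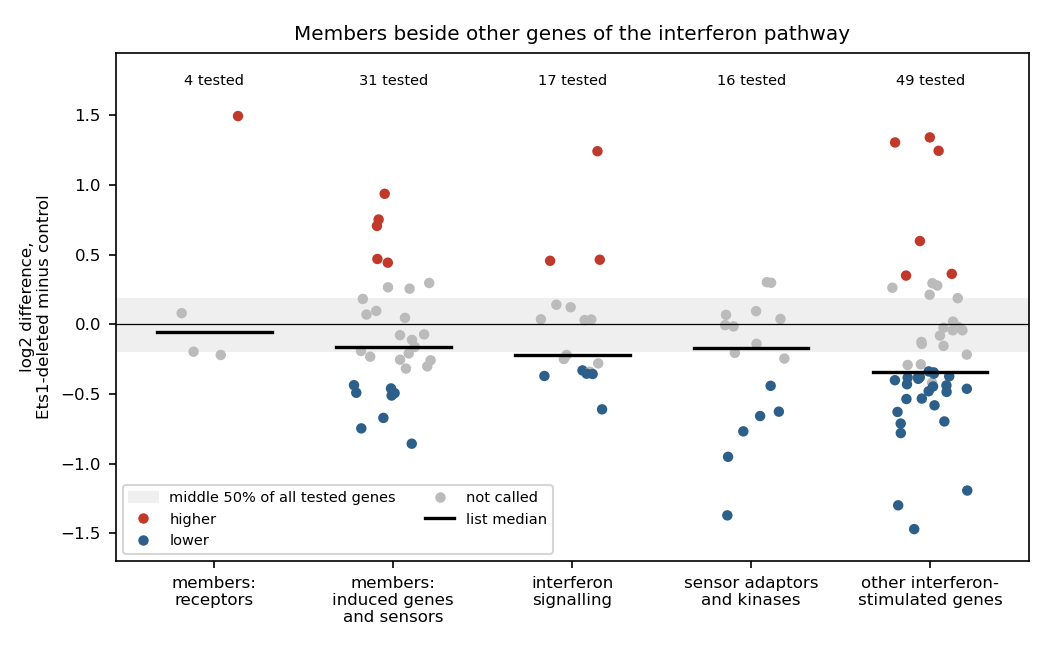
Log2 difference, Ets1-deleted minus control, of each tested gene, with receptors and the other members at the left and the 3 lists of other pathway genes at the right. Red points are called higher, blue lower and grey not called, bars are list medians and the band is the middle 50% of all tested genes; the medians of the lists lie between -0.06 and -0.34.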

How the data were processed

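RNA of the 4 samples was hybridised to Affymetrix 3' expression arrays with 45101 probe sets. The deposited values are probe set intensities on a linear scale, as their range (39.5 to 23291) shows. They were made by the authors with RMA per the submitters' processing notes; which software and version ran it was not stated there. RMA normalizes arrays to one distribution, so a shift common to most genes would not show (array medians 96.5 to 97.7).

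Values were taken to log2. The platform annotation gives 1 symbol to 34958 probe sets, several to 932 and lists none for 9211; names came from those with 1 symbol. The brightest probe set stood for each gene, and genes whose mean over the 4 arrays (taken on the log2 scale) reached 97.4, the median of that mean over all probe sets, were tested. Differences, with SE, came from limma 3.58.1 (R 4.3.3; lmFit and eBayes, tested on simulated data) with Benjamini-Hochberg adjustment over all 10873 genes and a threshold of 0.05; log2 differences carry the fit's standard error. Every member may be named; values in every array are given for called members and receptors, and from each pathway list the 3 genes of smallest p are named. The members and lists were chosen with earlier results of these data known. Alternatives covered normalization, background, filter, probe set choice, variance model, the replicate block, the threshold and leaving out each array. No date or other batch label was used here.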

Additional observations from a re-analysis of the deposited data

How the results depend on the processing

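The main counts were 2900 genes called, with 6 members higher and 8 lower. Over 16 alternatives, counts of called members stayed within 1.5 times of these except in 2. A filter at the 70th percentile left 24 members, of which 4 were called lower. With each gene's own variance (limma without moderation) 13 genes and 0 members were called in either direction, although 12 members had an unadjusted p under 0.05 (6 higher, 6 lower), so the member calls depend on the variance shared across genes. Counting 1 row per probe set gave 4797 called, a count of probe sets from more rows than the 10873 genes, so it cannot be set against the 2900 genes. Among called members, subtracting the 5th percentile moved Ifit3, Oasl2, Mx1 and Usp18 by over 1.5 times, to -0.84, 1.93, -0.90 and 1.19. Some members not called in the main fit moved as far, such as Ifit2 (0.27 to 0.54) and Oasl1 (0.18 to 0.37). Leaving out 1 array gave 4 to 6 members higher and 6 to 8 lower, with a median over the members of -0.143 to -0.094. Labels share replicate numbers but nothing else, and the differences of replicate 1 minus 2 in the 2 groups correlated at 0.167 across genes. A replicate block gave 3252 genes called, and 6 members higher and 10 lower, with Eif2ak2 and Zbp1 added (limma adjusted p = 0.0471 and 0.0484). Signs turned only in members that were not called: leaving out 1 array gave -0.14 to 0.34 for Ifitm2 (-0.09 without the first Ets1-deleted array, -0.14 without the second control array), -0.052 to 0.144 for Ifitm3, -0.191 to 0.046 for Rtp4 and -0.067 to 0.226 for Ifnar1, and the mean over probe sets gave -0.17 for Ifnar1 and 0.04 for Ifnar2. The cause was not tested. Of the members, 12 had a mean under 250 intensity units in Ets1-deleted arrays and 13 in control arrays, against a limit for testing of 97.4.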
